A study of Mus musculus with 20 samples.

Results

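The genes described are 42 cell cycle and proliferation genes: cyclins and their kinases, genes that license and copy DNA, genes of mitosis, and a pair of cyclin-dependent kinase inhibitors. They were taken by symbol from the deposited table of gene counts, which lists 46095 symbols, and all 42 were found there. The counts came from RNA sequencing of whole mouse livers, with 5 mice in each of 4 groups. WT chow and WT NASH were wild-type mice fed chow or a NASH diet, which brings on the fatty, inflamed liver of non-alcoholic steatohepatitis. KO chow and KO NASH were liver-specific Pck1-knockout mice on the same diets. Pck1 encodes the cytosolic phosphoenolpyruvate carboxykinase of gluconeogenesis. Every mouse had its diet for 24 weeks and was 31 to 33 weeks old. The labels do not name the Cre driver behind the knockout, the sex of the mice or whether littermates were used, and the p-values below measure the spread between these mice.

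Adult liver cells rarely divide, and they leave this resting state after tissue loss, injury or mitogen exposure. D-type cyclins start the passage through G1, and E-type cyclins with Cdk2 and the E2F factors then switch on the genes that load the MCM helicase onto replication origins and make deoxynucleotides. Cyclin A and cyclin B with Cdk1 drive entry into mitosis, which the spindle and checkpoint genes carry out. The inhibitors p21 (Cdkn1a) and p18 (Cdkn2c) hold these kinases back. Hepatocytes often replicate their DNA without dividing, so the replication genes and the mitotic genes of a liver need not move together.

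The libraries held 9958935 to 20601955 counts. Levels are given as CPM, counts scaled by sequencing depth and by TMM (edgeR's trimmed mean of M values), and those of each library are listed in the order of replicates 1 to 5. Pck1, the targeted gene, measured 626 ± 175 CPM in KO chow and 3573 ± 1139 in WT chow (SD, n = 5), and 445 ± 112 CPM in KO NASH and 2290.0 ± 511 in WT NASH (SD, n = 5), with no overlap between genotypes on either diet. Counts of 4 Y-linked genes, 2753 to 5230 in 13 libraries and 1 to 12 in 7, gave the sex of each mouse: 5 males in WT chow, 1 male (replicate 4) and 4 females in WT NASH, 3 males (replicates 1, 2 and 4) and 2 females in KO chow, and 4 males and 1 female (replicate 2) in KO NASH. Sex and group were therefore partly bound together, and WT chow held no female. In 6 libraries (WT chow 3, 4 and 5, WT NASH 4, KO chow 4 and 5) the level of a gene relative to the other libraries fell with its exonic length, with slopes of -0.33 to -0.24 log2 units per doubling of length against 0.00 to 0.19 in the other 14. KO chow 1 and 2 stood apart from the other libraries in the replication genes and KO NASH 2 in the mitotic genes, and the counts and medians that moved most without them are given beside the results. Fewer cells of a type and less RNA per cell cannot be told apart in RNA of whole liver.

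Per kilobase of exon, the levels of the members spanned a wide range. Pcna, the sliding clamp of the DNA polymerases, was the highest at 12.2 CPM per kilobase over all 20 libraries, followed by Gmnn (7.17), Ccnd1 (4.60), Cdkn1a (4.04), Mcm7 (3.27) and Tk1 (2.67). The lowest were Cdc6 (0.0757), Foxm1 (0.0801) and Bub1 (0.0825). Genes of mitosis were all below 0.5 CPM per kilobase, the highest being Birc5 at 0.474 and Cdc20 at 0.431. Of the 42 members, 38 passed edgeR's low-count filter with 14440 genes in all. Cdc6, Plk1, Bub1 and Aurkb did not and were not tested.

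**Figure D1:**
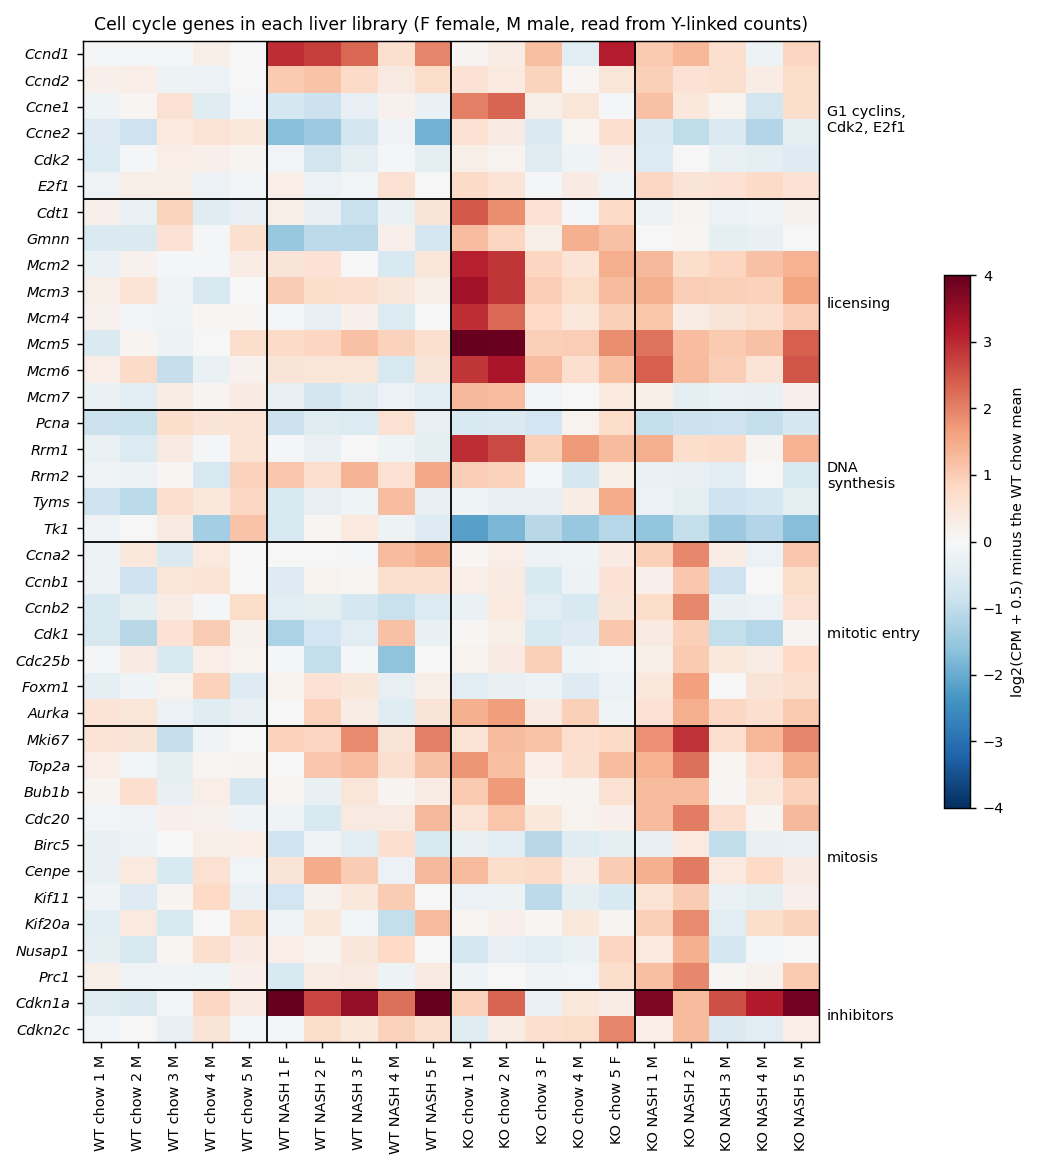
Levels of the 38 tested members (vertical axis, by role) in each of the 20 libraries (horizontal axis, by group and replicate, with the sex read from Y-linked counts), as log2(CPM + 0.5) minus the WT chow mean on a colour scale from -4 to 4. The Mcm genes and Rrm1 are reddest in KO chow 1 and 2, Cdkn1a in the NASH groups, and most genes of mitotic entry and mitosis in KO NASH 2.

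The sequences before the start sites of some members are shown ahead of their levels by library, since replication and mitotic genes carry different known promoter elements. RefSeq promoter windows (GRCm38.p6, 250 bases before to 50 after the transcript start) were matched for 33 of the 42 members and for 27025 genes in all. Each window was searched on both strands for 3 motifs. The E2F words were TTTCCCGC, TTTGGCGC, TTTCGCGC and TTTGCCGC. The words for CHR, the cell cycle genes homology region, were TTTGAA and, with another base at the same place, TTTAAA. The third motif was the box bound by NF-Y, CCAAT, and E2F words on opposite strands may overlap each other. An E2F word stood in 2.6% of all windows, in 6 of 7 licensing genes, in 1 of 6 genes of mitotic entry, and in 0 of 10 genes of mitosis and 0 of 5 of DNA synthesis. A CHR word stood in 30.6% of all windows, in 5 of 6 genes of mitotic entry, in 8 of 10 of mitosis and in 2 of 7 licensing genes. CCAAT stood in 41.1% of all windows, in all 6 genes of mitotic entry, in 8 of 10 of mitosis and in 5 of 7 licensing genes.

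Below are the 170 bases directly before the start of Mcm2, Mcm5, Mcm6 and Rrm1, which were higher in KO chow than in WT chow, and of Ccnb2, a gene of mitotic entry that was higher in KO NASH than in WT NASH. Each runs 5′ to 3′ on the strand of the gene, and capitals mark every match to the searched words. They lie at chr6:88898781-88898950 (Mcm2, minus strand), chr8:75109339-75109508 (Mcm5, plus strand), chr1:128359706-128359875 (Mcm6, minus strand), chr7:102441525-102441694 (Rrm1, plus strand) and chr9:70421555-70421724 (Ccnb2, minus strand) of GRCm38.p6. Bases are counted back from the RefSeq start, which can differ from the gene start given further on.
Mcm2: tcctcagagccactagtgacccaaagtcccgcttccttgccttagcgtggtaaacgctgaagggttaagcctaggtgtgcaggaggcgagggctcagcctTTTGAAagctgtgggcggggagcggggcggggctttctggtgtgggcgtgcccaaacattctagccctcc
Mcm5: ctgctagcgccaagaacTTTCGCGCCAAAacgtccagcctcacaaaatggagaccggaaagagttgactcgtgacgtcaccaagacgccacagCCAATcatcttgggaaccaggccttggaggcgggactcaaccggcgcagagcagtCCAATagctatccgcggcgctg
Mcm6: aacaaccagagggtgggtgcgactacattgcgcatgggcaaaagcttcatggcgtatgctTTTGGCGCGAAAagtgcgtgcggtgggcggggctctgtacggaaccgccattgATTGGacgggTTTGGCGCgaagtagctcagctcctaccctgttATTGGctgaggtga
Rrm1: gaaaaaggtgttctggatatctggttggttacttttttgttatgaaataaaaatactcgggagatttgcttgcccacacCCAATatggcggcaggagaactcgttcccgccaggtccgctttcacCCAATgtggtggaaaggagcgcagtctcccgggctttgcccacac
Ccnb2: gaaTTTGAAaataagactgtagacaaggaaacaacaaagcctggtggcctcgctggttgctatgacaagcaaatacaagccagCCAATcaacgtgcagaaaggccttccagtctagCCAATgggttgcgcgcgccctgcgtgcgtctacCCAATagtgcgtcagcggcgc
Mcm5 and Mcm6 each hold a pair of E2F words that overlap on opposite strands, from base -153 in Mcm5 and from base -110 in Mcm6. Mcm6 has a further E2F word from base -47. Mcm2 and Rrm1 hold no E2F word: Mcm2 shows a CHR word from base -70 and Rrm1 CCAAT boxes from bases -91 and -45. Ccnb2 has a CHR word at the far end and CCAAT boxes from bases -87, -54 and -21. Outside the printed bases, the searched window of Ccnb2 holds another CHR word, from base 5 after the start. That of Mcm2 holds a CCAAT box from base -175, and that of Mcm5 a CHR word from base -221 and a CCAAT box from base 7. These matches describe letters only, and binding was not measured.

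On chow, the knockout livers had more RNA of Rrm1 and of 5 of the 8 tested licensing genes. Mcm2, Mcm3, Mcm4, Mcm5, Mcm6 and Rrm1 rose in KO chow against WT chow, by 3.83-fold (Mcm4) to 13.0-fold (Mcm5), and Tk1 fell. These are 7 of the 38 tested members called at an edgeR adjusted p under 0.05 over all genes, where 5.53% of all genes tested were called. By direction, 6 members were higher against 3.03% of all genes and 1 was lower against 2.49%. In 6 members, all higher, the groups did not overlap, against 4.91% of all genes. The median log2 fold change of the members was 0.60, and 0.00 over all genes. No gene of mitotic entry or mitosis was called by edgeR: 1 of 7 and 4 of 10 had an unadjusted p under 0.05, and DESeq2 called 0 and 1. With sex as a term in the fit 10 members were called, against 5.84% of all genes: the same 7 and Ccne1, Cdt1 and Gmnn. The calls rest largely on KO chow 1 and 2: without them 1 member (Rrm1) was called, beside 175 of 14440 genes. Leaving out any single library gave 6 to 10.

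On the NASH diet the genotypes differed in 4 members, of which Rrm1 and Tk1 were also called on chow. Against WT NASH, Rrm1 and Ccnb2 were higher in KO NASH, and Rrm2 and Tk1 were lower. These are 4 of the 38 tested members, a share close to the 9.65% of all genes called, with 2 higher against 4.9% and 2 lower against 4.74%. Of the tested members, 8 had groups that did not overlap (6 higher, 2 lower), against 14.1% of all genes. The median log2 fold change was 0.48 over the members and 0.00 over all genes. With sex as a term 4 members were called against 4.33% of all genes: Rrm2 and Ccnb2 again, with Cdc25b and Prc1 in place of Rrm1 and Tk1. Without WT NASH 2, WT NASH 3, KO NASH 1 or KO NASH 5, 2 members were called.

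Within wild type, the NASH diet was accompanied by more RNA of Ccnd1, Ccnd2 and Cdkn1a, the gene of p21. With Mki67, these were higher in WT NASH than in WT chow, which is 4 members called, all higher, against 5.93% of all genes (2.69% higher, 3.24% lower). The groups did not overlap in 3 members (Ccnd1, Ccnd2 and Cdkn1a), against 6.15% of all genes. The median log2 fold change was 0.26 over the members and 0.01 over all genes. With sex as a term only Cdkn1a among the members was called, against 1.11% of all genes. In the 6 males of these groups (1 in WT NASH) edgeR called 0 members. Without that WT NASH male, replicate 4, it called 7.

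Within the knockout, Foxm1 and Cdkn1a were higher and Cdt1 and Gmnn lower in KO NASH than in KO chow. That is 4 members against 3.29% of all genes called, 2 higher against 1.77% and 2 lower against 1.52%. In 2 members, Foxm1 and Gmnn, the groups did not overlap, against 8.5% of all genes. The median log2 fold change was -0.05 over the members and -0.02 over all genes. With sex as a term 6 members were called, against 3.98% of all genes. Without KO chow 1 and 2 only Cdkn1a of these members was called, beside 393 of 14440 genes. The count rests on single libraries: it was 0 without KO chow 1, KO chow 5 or KO NASH 5, 1 without KO chow 4 or KO NASH 1, 2, 3 or 4, and 2 without KO chow 2 or WT NASH 2, 3 or 5. Calls over all genes fell too, from 475 of 14440 with all libraries to 197 without KO NASH 2.

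The interaction asks whether the genotype difference was the same on both diets. By edgeR 0 members were called, where 0.139% of all genes were, and 9 members had an unadjusted p under 0.05. DESeq2 called 2 (Ccnd1 and Rrm2), and limma voom called 4. All 8 tested licensing genes had a negative interaction, meaning a smaller genotype difference on the NASH diet, with a median of -1.21 log2 units and 4 of them at an unadjusted p under 0.05. Without KO chow 1 and 2 the median of the licensing genes was -0.24, with 0 of the 8 at an unadjusted p under 0.05. The median over all members then moved from -0.32 to 0.20, and 1 member was called, as it was without WT NASH 4. Over all genes 69 of 14440 were called without KO chow 1 and 2.

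**Figure D2:**
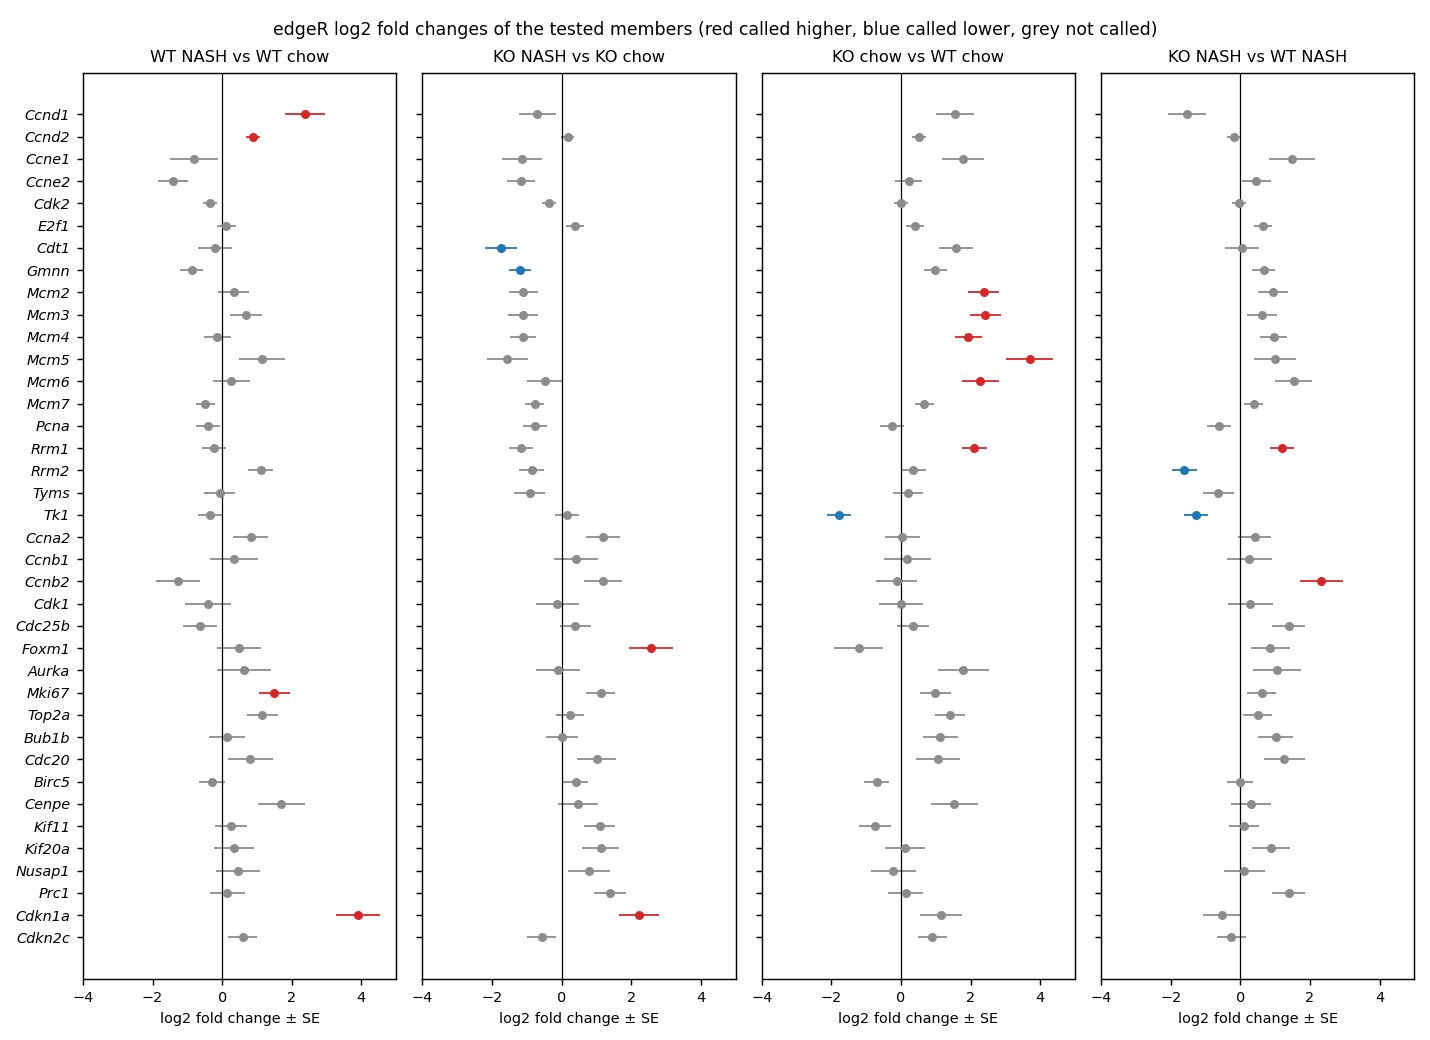
edgeR log2 fold changes (horizontal axes, point ± SE) of the 38 tested members (vertical axis) in 4 comparisons, with called members in red (higher) or blue (lower). The licensing genes lie to the right of 0 in KO chow against WT chow and to the left of 0 in KO NASH against KO chow, and Cdkn1a lies far to the right of 0 in both diet comparisons.

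Among the G1 genes, Ccnd1 (chr7:144929931-144939925, minus strand of GRCm38, the build of all gene positions here), the cyclin D1 gene, had the highest mean CPM. Its level was 7.46, 7.47, 7.46, 9.31 and 7.90 CPM in WT chow, 64.9, 56.4, 40.4, 12.5 and 31.8 in WT NASH, 8.62, 9.85, 18.7, 5.59 and 73.3 in KO chow, and 17.0, 20.3, 12.8, 6.76 and 14.6 in KO NASH. WT chow was tight and low, and all 5 WT NASH libraries lay above it, with the male WT NASH 4 the nearest. The diet difference within wild type was 2.38 log2 units (SE 0.57, edgeR adjusted p = 0.0166). All 7 females (18.7 to 73.3 CPM) had more Ccnd1 than all 13 males (5.59 to 17.0 CPM), across the 4 groups. In males alone the log2 fold change was 0.66, and with sex as a term 0.69, without a call in either fit. Over all fits tried the edgeR, DESeq2 or limma adjusted p ranged from 0.000214 to 0.534. The share of sex in the diet difference was not tested beyond this. Exons of Ccnd1 overlap those of LTO1 on the other strand by up to 818 bases, and reads of the pair cannot be told apart if strand was not used.

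Ccnd2 (chr6:127125162-127152193, minus strand), which encodes cyclin D2, moved on a smaller scale. It stood at 6.10, 6.34, 4.48, 4.37 and 5.20 CPM in WT chow, 11.4, 12.1, 9.20, 6.91 and 9.04 in WT NASH, 8.01, 6.96, 10.1, 5.52 and 7.47 in KO chow, and 10.7, 8.12, 8.51, 6.61 and 9.11 in KO NASH. The WT NASH values all lay above the WT chow values. KO chow overlapped both, and KO NASH lay above WT chow and overlapped WT NASH. The diet difference within wild type was 0.88 log2 units (SE 0.20, edgeR adjusted p = 0.0136). It too was not called with sex as a term, where the log2 fold change was 0.63. The third D-type cyclin gene, Ccnd3, is no member and did not pass the test between wild-type diets, at 21.9 ± 4.08 CPM in WT NASH and 29.1 ± 6.46 in WT chow (SD, n = 5).

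The E-type cyclins bind Cdk2 at the start of S phase. Ccne1 was highest in KO chow 1 and 2, at 4.54 and 5.75 CPM, while the other 18 libraries ranged from 0.178 to 2.26 CPM. Its difference between KO chow and WT chow was 1.78 log2 units (SE 0.61, edgeR adjusted p = 0.0941). Ccne2 had lower means on the NASH diet, with 4.11 ± 1.78 CPM in WT chow, 1.60 ± 1.14 CPM in WT NASH, 4.74 ± 1.62 CPM in KO chow and 2.10 ± 0.570 CPM in KO NASH. Its median was 5.19 CPM in the 6 libraries of negative length slope and 2.20 CPM in the other 14. The part of that slope in the level of Ccne2 was not tested. In edgeR its diet difference missed the threshold in wild type (log2 fold change -1.41 with an SE of 0.43, edgeR adjusted p = 0.0533) and in the knockout (log2 fold change -1.17 with an SE of 0.40, edgeR adjusted p = 0.105). Cdk2 stayed between 6.29 and 13.2 CPM in all libraries, and E2f1, an activator of S-phase genes, between 1.48 and 3.71. By edgeR with group alone neither was called in any comparison, while limma voom called Cdk2 between the wild-type diets and E2f1 between the genotypes on the NASH diet. E2f1 was called there by edgeR too without the 6 libraries of negative slope.

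Licensing holds the genes that load the MCM helicase at origins in G1. Summed over Mcm2 to Mcm7, the 6 subunits of that helicase, WT chow had 22.3, 23.5, 24.9, 23.9 and 29.5 CPM, and WT NASH 26.9, 22.7, 25.1, 20.9 and 23.7. KO chow had 158, 133, 35.9, 31.0 and 47.0 CPM, and KO NASH 56.0, 31.6, 31.9, 32.1 and 58.1. Of the 8 tested licensing genes, 5 were higher in KO chow than in WT chow, and all 8 had a positive log2 fold change, with a median of 2.11. Between the genotypes on the NASH diet all 8 were again positive, with a median of 0.81, and edgeR called 0 of them (3 at an unadjusted p under 0.05, and 1 called by DESeq2). Between diets all 8 were negative in the knockout, with 2 called and a median of -1.12, while in wild type 4 were positive and 4 negative. Without KO chow 1 and 2 the median was 1.02 between the genotypes on chow and 0.05 between diets in the knockout, with 0 of the 8 called by edgeR in either and 6 and 1 at an unadjusted p under 0.05. Between the genotypes on the NASH diet edgeR then called 3 (Mcm2, Mcm4 and Mcm6). Of all 14440 genes it called 175, 393 and 1468 in these comparisons, in the order given. In the summed level, all 10 knockout libraries were above all 10 wild-type libraries. KO chow 1 and 2 stood far above the other 18, and both were male.

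Mcm5 (chr8:75109569-75128439, plus strand) had the largest log2 fold change on chow. Its levels were 0.355, 0.867, 0.597, 0.760 and 1.59 CPM in WT chow, 1.68, 1.84, 2.36, 1.91 and 1.49 in WT NASH, 27.1, 19.3, 1.98, 2.03 and 4.13 in KO chow, and 5.24, 2.48, 2.11, 2.40 and 6.21 in KO NASH. Every KO chow library exceeded every WT chow library, and the values of KO chow 3 and 4 were the closest to WT chow. Against WT chow the difference was 3.70 log2 units (SE 0.67, edgeR adjusted p = 0.00327).

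Mcm3 (chr1:20802968-20820312, minus strand) had the same pair of high libraries. It measured 2.37, 3.09, 1.69, 1.04 and 1.94 CPM in WT chow, 4.45, 3.50, 3.39, 2.80 and 2.39 in WT NASH, 24.6, 17.3, 4.36, 3.56 and 5.41 in KO chow, and 6.14, 4.36, 4.22, 4.12 and 6.80 in KO NASH. KO chow 1 and 2 were again high, and the other KO chow libraries lay just above the WT chow range. The difference on chow was 2.43 log2 units (SE 0.46, edgeR adjusted p = 0.00421).

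For Mcm2 (chr6:88883474-88898780, minus strand) the levels were 1.42, 2.11, 1.69, 1.71 and 2.36 CPM in WT chow, 2.84, 2.97, 1.88, 1.03 and 2.78 in WT NASH, 19.7, 16.3, 3.76, 2.90 and 5.83 in KO chow, and 5.20, 3.33, 3.73, 4.74 and 5.58 in KO NASH. No knockout library on either diet overlapped the wild-type libraries of its diet. On chow the difference was 2.38 log2 units (SE 0.44, edgeR adjusted p = 0.00400), and on the NASH diet it was 0.95 log2 units (SE 0.43, edgeR adjusted p = 0.169).

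Mcm4 (chr16:15623897-15637400, minus strand) read 4.38, 3.52, 3.38, 4.08 and 4.02 CPM in WT chow, 3.68, 2.97, 4.54, 2.50 and 3.81 in WT NASH, 33.3, 20.5, 7.13, 5.30 and 8.02 in KO chow, and 8.91, 4.92, 5.77, 6.37 and 8.21 in KO NASH. Here too the genotypes did not overlap on either diet. On chow the difference was 1.94 log2 units (SE 0.39, edgeR adjusted p = 0.00618). Between the NASH groups it was 0.95 log2 units (SE 0.38, edgeR adjusted p = 0.118).

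In Mcm6 (chr1:128331590-128359664, minus strand) the levels were 2.90, 4.39, 0.995, 1.90 and 2.70 CPM in WT chow, 3.62, 3.50, 3.51, 1.32 and 3.55 in WT NASH, 20.1, 27.2, 6.29, 4.07 and 6.02 in KO chow, and 14.6, 6.33, 5.15, 3.64 and 15.7 in KO NASH. KO chow 4 fell within the WT chow range, and in KO NASH replicates 1 and 5 were well above the rest of their group. The difference was 2.28 log2 units (SE 0.54, edgeR adjusted p = 0.0173) on chow. The call was lost without KO chow 1 or 2, and the log2 fold change was 1.80 to 2.56 over all fits that left out 1 library. On the NASH diet, where the groups did not overlap, it was 1.53 log2 units (SE 0.52, edgeR adjusted p = 0.0677).

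Mcm7 (chr5:138164583-138172422, minus strand), the licensing gene of highest mean CPM, had 10.9, 9.53, 16.5, 14.4 and 16.9 CPM in WT chow, 10.6, 7.89, 9.44, 11.3 and 9.69 in WT NASH, 33.2, 32.3, 12.4, 13.1 and 17.6 in KO chow, and 15.9, 10.2, 10.9, 10.8 and 15.6 in KO NASH. Only KO chow 1 and 2 left the range of the other libraries clearly. The difference on chow was 0.67 log2 units (SE 0.27, edgeR adjusted p = 0.156). Exons of Mcm7 overlap those of Ap4m1 and Cops6 on the other strand and hold Mir25 and Mir93.

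With KO chow 1 and 2 left out, the log2 fold changes of Mcm2 to Mcm6 against WT chow were 1.16, 1.12, 0.81, 1.68 and 1.06. None was then called, although KO chow 3, 4 and 5 lay above all WT chow libraries for Mcm2, Mcm3, Mcm4 and Mcm5. The summed levels of macrophage markers (289 and 309 CPM) and immature myeloid markers (3.84 and 2.49 CPM) in KO chow 1 and 2 were the lowest of their group, and those of T cell markers were 5.51 and 3.30 CPM where the group reached 7.08. Red cell precursor markers summed to 162 and 139 CPM in them, in a group that ran from 75.6 to 162, and bile duct markers to 46.8 and 70.6, in a group that ran from 44.0 to 255. The part of these cells in the Mcm levels was not tested. In males alone, 3 KO chow against 5 WT chow mice, Mcm2 to Mcm6 all stayed called. KO chow 1 and 2 are among those 3, so this fit cannot show whether the calls hold without them.

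**Figure D3:**
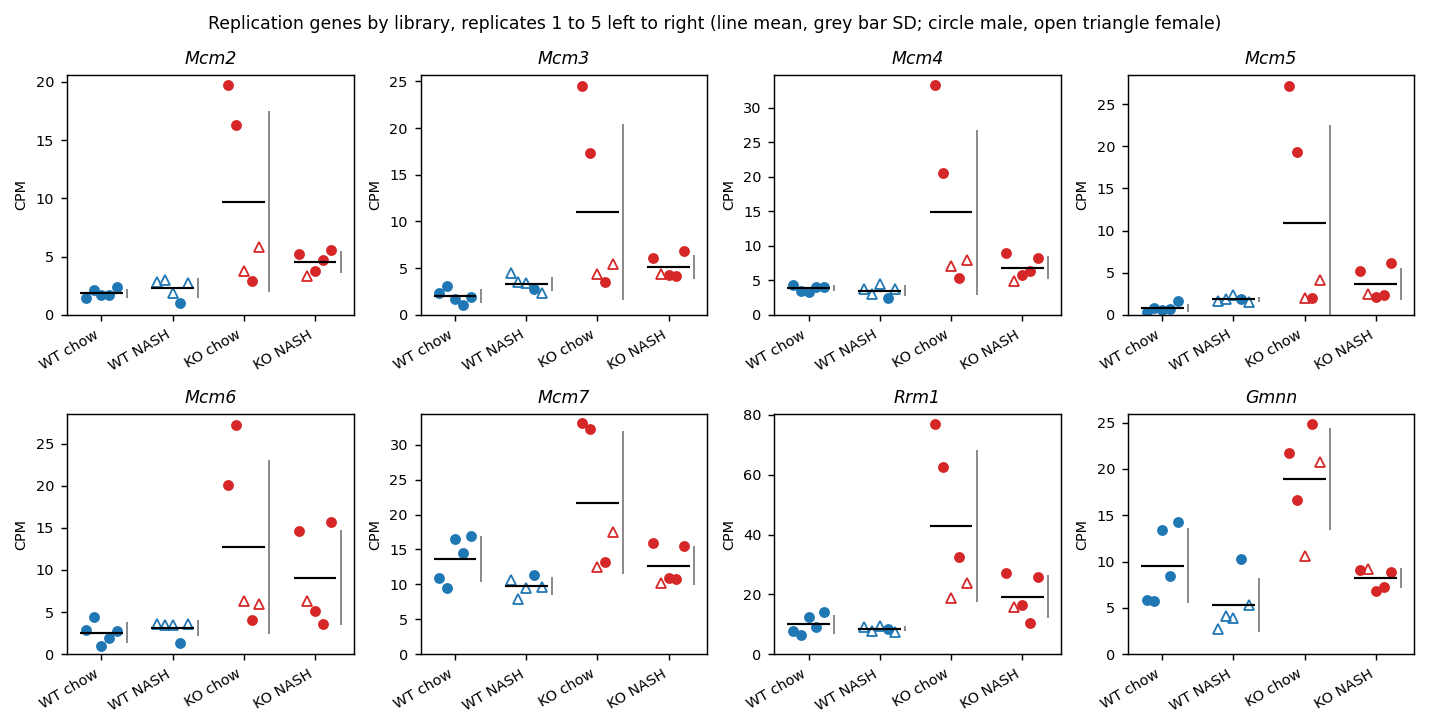
CPM (vertical axes, linear) of Mcm2 to Mcm7, Rrm1 and Gmnn in each library by group (horizontal axes, replicates 1 to 5 left to right; blue wild type, red knockout; filled circles males, open triangles females), with the group mean as a line and ± SD as a grey bar that is not drawn below 0. KO chow 1 and 2 are the 2 leftmost KO chow points, at 27.1 and 19.3 CPM for Mcm5 where WT chow does not pass 1.59.

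Cdt1 (chr8:122568015-122573554, plus strand) brings the helicase to origins, and its protein partner geminin, the product of Gmnn, blocks it. Cdt1 read 1.84, 1.19, 3.28, 0.950 and 1.11 CPM in WT chow, 1.87, 1.13, 0.605, 1.18 and 2.39 in WT NASH, 10.7, 6.96, 2.57, 1.45 and 2.98 in KO chow, and 1.28, 1.71, 1.24, 1.34 and 1.81 in KO NASH. The KO NASH libraries were close together, and KO chow ranged widely around its 2 high libraries. Within the knockout Cdt1 fell on the NASH diet, with -1.74 log2 units (SE 0.47, edgeR adjusted p = 0.0459). Leaving out single libraries gave -1.98 to -1.25 log2 units, with the call lost without WT NASH 1, 2 or 5, KO chow 1, 2 or 5, or KO NASH 1, 2, 3, 4 or 5. Without both KO chow 1 and 2 the log2 fold change was -0.67, not called. Over all fits tried the edgeR, DESeq2 or limma adjusted p ranged from 0.00281 to 0.728.

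Gmnn (chr13:24751845-24761923, minus strand) gave 5.86, 5.80, 13.4, 8.45 and 14.3 CPM in WT chow, 2.78, 4.09, 3.94, 10.3 and 5.36 in WT NASH, 21.7, 16.7, 10.6, 24.8 and 20.7 in KO chow, and 9.04, 9.15, 6.83, 7.23 and 8.89 in KO NASH. All KO chow libraries were above all KO NASH libraries, and unlike the Mcm genes its highest value was in KO chow 4. The diet difference in the knockout was -1.20 log2 units (SE 0.32, edgeR adjusted p = 0.0444). With 1 library left out at a time it was -1.35 to -1.09, and the call was lost without WT NASH 2, 3 or 5, KO chow 1, 2, 4 or 5, or KO NASH 1, 2, 3, 4 or 5. Without both KO chow 1 and 2 it was -1.20, not called. Against WT chow, Gmnn in KO chow gave 0.99 log2 units (SE 0.32, edgeR adjusted p = 0.0771). Cdc6, the other loading factor, was too low to test, with 0 to 44 counts and its highest level, 2.04 CPM, in KO chow 1.

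Genes of DNA synthesis did not move as 1 group: in each genotype comparison Rrm1 was called higher and Tk1 lower, and on the NASH diet Rrm2 was lower too. Rrm1 and Rrm2 encode the large and the small subunit of ribonucleotide reductase, which makes deoxynucleotides. Rrm1 (chr7:102441695-102469771, plus strand) measured 7.88, 6.39, 12.4, 9.02 and 14.1 CPM in WT chow, 9.17, 7.83, 9.38, 8.53 and 7.36 in WT NASH, 76.8, 62.6, 19.0, 32.4 and 23.8 in KO chow, and 27.2, 15.8, 16.6, 10.4 and 26.0 in KO NASH. Every KO chow library was above every WT chow library, and every KO NASH library above every WT NASH library. Its difference was 2.11 log2 units (SE 0.35, edgeR adjusted p = 0.00176) on chow. Between the NASH groups it was 1.18 log2 units (SE 0.35, edgeR adjusted p = 0.0360). On chow the call held in all 13 other fits and in all 20 that left out 1 library, and without KO chow 1 and 2 the log2 fold change was 1.33. On the NASH diet the call was lost with sex as a term, where the log2 fold change was 0.72. The call was lost without WT NASH 2, 3, 4 or 5, or KO NASH 1, 3 or 5, and the log2 fold change was 1.04 to 1.34 over all fits that left out 1 library.

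Rrm2 (chr12:24708241-24714146, plus strand) went the other way. Its levels were 2.61, 2.49, 3.08, 1.71 and 6.03 CPM in WT chow, 6.78, 4.92, 8.29, 4.71 and 9.56 in WT NASH, 6.25, 6.07, 2.72, 1.67 and 3.58 in KO chow, and 2.39, 2.22, 1.99, 2.87 and 1.72 in KO NASH. All KO NASH libraries were below all WT NASH libraries, while KO chow and WT chow overlapped. On the NASH diet the difference was -1.62 log2 units (SE 0.36, edgeR adjusted p = 0.00876), and on chow it was 0.36 log2 units (SE 0.36, edgeR adjusted p = 0.626). The difference between these differences was -1.97 log2 units (SE 0.50, edgeR adjusted p = 0.137), which edgeR did not call and DESeq2 did. The KO NASH call was lost in males alone, where WT NASH had 1 library.

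Tk1 (chr11:117815526-117826092, minus strand) encodes the thymidine kinase of the salvage pathway. It stood at 18.2, 20.041, 25.6, 7.41 and 44.2 CPM in WT chow, 12.6, 21.002, 26.4, 17.1 and 13.8 in WT NASH, 4.08, 5.27, 8.86, 6.68 and 8.81 in KO chow, and 6.27, 10.002, 6.89, 8.58 and 5.71 in KO NASH. The knockout values were low on both diets, and on chow WT chow 4 lay within the knockout range. The difference was -1.78 log2 units (SE 0.35, edgeR adjusted p = 0.00570) on chow, and without KO chow 1 and 2 its log2 fold change was -1.51, not called. On the NASH diet it was -1.28 log2 units (SE 0.35, edgeR adjusted p = 0.0253), without overlap, and it was not called with sex as a term (log2 fold change -1.003). Leaving out single libraries gave -1.39 to -1.10 log2 units, with the call lost without WT NASH 2 or 3, or KO NASH 1, 3 or 5. Tk1 exons overlap those of Afmid on the other strand by up to 83 bases.

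Pcna (chr2:132249162-132253314, minus strand) had the highest mean CPM of the DNA synthesis genes, and edgeR called it in none of the comparisons. It read 18.5, 17.9, 55.1, 48.6 and 50.2 CPM in WT chow, 18.5, 24.0, 23.2, 51.6 and 27.0 in WT NASH, 22.3, 22.6, 19.8, 37.7 and 56.4 in KO chow, and 17.4, 18.6, 19.1, 17.4 and 20.9 in KO NASH. The values fell into a high and a low set that crossed the groups. All 6 libraries with the negative length slope (37.7 to 56.4 CPM) were above the other 14 (17.4 to 27.0 CPM), and the part of that slope in the level was not tested. Limma voom called Pcna between the wild-type diets and between the genotypes on chow. Tyms, the thymidylate synthase gene, split in the same way and was called in no comparison by any of the fits run.

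Mitotic entry covers cyclin A2, cyclins B1 and B2, Cdk1 and their activators. In KO NASH against WT NASH all 7 tested genes had a positive log2 fold change, with a median of 0.86 and 1 called (Ccnb2). Without KO NASH 2 the median was 0.30 and edgeR called 0 of the 7, with 2 at an unadjusted p under 0.05. Of all 14440 genes it then called 1099. Cdk1 (chr10:69335146-69352938, minus strand) had the highest mean CPM among them. It measured 0.948, 0.542, 2.89, 4.08 and 2.08 CPM in WT chow, 0.452, 0.831, 1.15, 4.56 and 1.36 in WT NASH, 1.85, 2.17, 0.990, 1.09 and 4.25 in KO chow, and 2.39, 3.89, 0.683, 0.527 and 1.95 in KO NASH. The groups overlapped throughout, and the group means lay between 1.67 and 2.11 CPM. No comparison of Cdk1 was called in the fits run.

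Ccnb2 (chr9:70407692-70421547, minus strand), the cyclin B2 gene, was low, with 1 to 95 counts per library. Its levels were 0.296, 0.433, 0.995, 0.665 and 1.52 CPM in WT chow, 0.387, 0.415, 0.242, 0.147 and 0.323 in WT NASH, 0.510, 1.09, 0.396, 0.290 and 1.22 in KO chow, and 1.53, 4.06, 0.497, 0.527 and 1.36 in KO NASH. Every KO NASH library was above every WT NASH library, and KO NASH 2, the female, was the highest of all 20. The difference was 2.32 log2 units (SE 0.61, edgeR adjusted p = 0.0215). With 1 library left out at a time it was 1.63 to 2.54, and the call was lost without KO NASH 2. On chow the difference was -0.13 log2 units (SE 0.58, edgeR adjusted p = 0.928).

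Foxm1 (chr6:128362967-128376146, plus strand), a transcription factor that activates genes of mitosis, had 1 to 47 counts. It stood at 0.118, 0.217, 0.398, 1.04 and 0.0693 CPM in WT chow, 0.387, 0.712, 0.605, 0.147 and 0.452 in WT NASH, 0.0926, 0.161, 0.198, 0.0726 and 0.182 in KO chow, and 0.597, 2.01, 0.310, 0.671 and 0.771 in KO NASH. All KO NASH values were above all KO chow values, and KO NASH 2 was again highest. The difference within the knockout was 2.56 log2 units (SE 0.63, edgeR adjusted p = 0.0314). The call was lost without KO chow 1, 4 or 5, or KO NASH 2 or 5, and the log2 fold change was 1.99 to 2.76 over all fits that left out 1 library. Cdc25b, the phosphatase that activates Cdk1, was higher in all KO NASH libraries (1.32 to 2.65 CPM) than in all WT NASH libraries (0.00 to 1.03 CPM), with 1.39 log2 units (SE 0.48, edgeR adjusted p = 0.0664).

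Ccna2, Ccnb1 and the mitotic kinase gene Aurka were called in no comparison by edgeR with group alone, with means per group of 1.02 to 2.42, 0.548 to 0.779 and 0.238 to 0.910 CPM. Aurka was called in KO chow against WT chow by limma voom, and by edgeR in males alone. Plk1, a further mitotic kinase, was not tested, and its group means ran from 0.092 CPM in WT chow to 0.853 CPM in KO NASH.

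Genes of mitosis itself were low in all groups. Mki67 (chr7:135689784-135716361, minus strand), which encodes the proliferation marker Ki-67, had the highest mean CPM of them. Its level was 2.25, 2.22, 0.498, 1.23 and 1.39 CPM in WT chow, 3.10, 2.97, 6.48, 2.21 and 7.10 in WT NASH, 2.27, 4.10, 3.71, 2.54 and 2.73 in KO chow, and 6.23, 13.6, 2.55, 4.26 and 6.89 in KO NASH. WT NASH tended to lie above WT chow, with WT NASH 4 inside the WT chow range. The diet difference in wild type was 1.50 log2 units (SE 0.44, edgeR adjusted p = 0.0478). With sex as a term the log2 fold change was 0.78, not called. Leaving out single libraries gave 1.26 to 1.68 log2 units, with the call lost without WT chow 3, 4 or 5, WT NASH 1, 2, 3 or 5, KO chow 1, 2, 3 or 4, or KO NASH 1, 4 or 5. On chow, all KO chow libraries were above all WT chow libraries for Mki67, without a call (log2 fold change 0.99 with an SE of 0.44, edgeR adjusted p = 0.217).

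No other gene of mitosis was called by edgeR with group alone and all 20 libraries. In KO NASH against KO chow all 10 tested genes had a positive log2 fold change, with a median of 0.90, 3 at an unadjusted p under 0.05 and 1 (Prc1) called by DESeq2. Without KO NASH 2 the median was 0.35, with 1 gene at an unadjusted p under 0.05. Top2a, the topoisomerase that untangles chromosomes, had group means of 1.06 ± 0.257 CPM (WT chow), 2.37 ± 0.886 CPM (WT NASH), 2.82 ± 1.32 CPM (KO chow) and 3.35 ± 2.11 CPM (KO NASH). Its difference on chow between genotypes was 1.40 log2 units (SE 0.44, edgeR adjusted p = 0.0657). The checkpoint gene Bub1b gave 1.13 log2 units (SE 0.49, edgeR adjusted p = 0.201) in the same comparison, and Cenpe, a kinetochore motor, gave 1.53 log2 units (SE 0.67, edgeR adjusted p = 0.199). Prc1, which bundles the midzone of the spindle, gave 1.39 log2 units (SE 0.48, edgeR adjusted p = 0.0683) in KO NASH against WT NASH. The fit with sex as a term called Prc1 in KO NASH against both WT NASH and KO chow. Top2a was called on chow between genotypes in males alone, and limma voom called Bub1b and Cenpe there.

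Cdc20, Birc5, Kif11, Kif20a and Nusap1 encode an activator of the anaphase-promoting complex, survivin, 2 spindle motors and a spindle protein. Their mean CPM over all 20 libraries was 0.806, 1.61, 1.47, 1.19 and 0.794. Each had its highest library in KO NASH 2 except Birc5, where it was WT NASH 4. KO NASH 2 was the highest of the 20 libraries in 8 of the 10 tested genes of mitosis and in 5 of the 7 of mitotic entry, but in 0 of the 8 licensing genes. Its summed immature myeloid markers were 29.2 CPM, against 3.26 to 11.9 CPM in the other KO NASH libraries. The sums in KO chow 5 and WT NASH 2 were higher, at 42.2 and 33.9 CPM. Of the markers in that list, Ngp stood at 5.30, Ltf at 3.33 and Elane at 1.03 CPM in KO NASH 2, the highest of the 20 libraries, while S100a8 and S100a9, at 5.26 and 11.8 CPM, were higher in KO chow 5 (13.7 and 27.0 CPM). Their part in the mitotic levels was not tested. Bub1 and Aurkb, too low to test, had group means of 0.293 to 0.436 and 0.103 to 0.607 CPM.

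**Figure D4:**
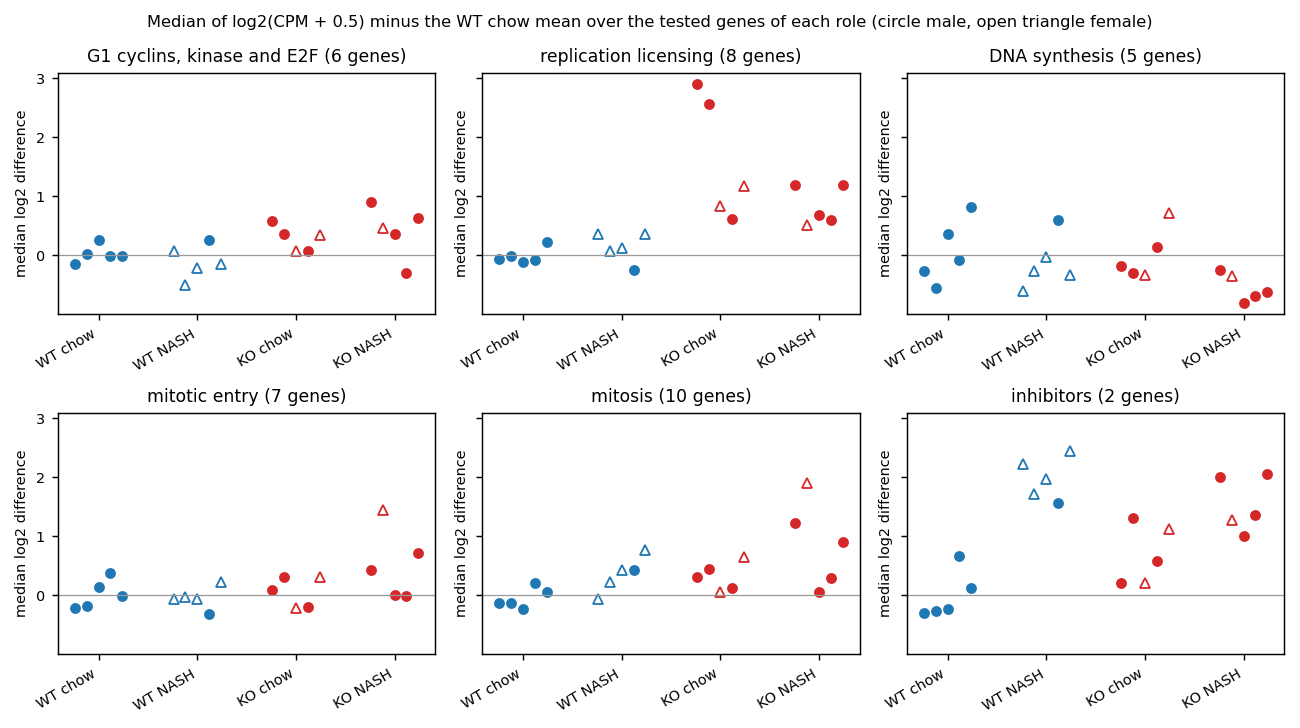
Median over the tested genes of each role of log2(CPM + 0.5) minus the WT chow mean (vertical axes, log2 units), 1 point per library by group (horizontal axes, replicates 1 to 5 left to right; blue wild type, red knockout; filled circles males, open triangles females). Replication licensing reaches 2.90 in KO chow 1 and mitosis reaches 1.91 in KO NASH 2, while DNA synthesis stays between -0.81 and 0.81.

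Of the inhibitors, Cdkn1a (chr17:29090976-29100727, plus strand), the gene of p21 and a classical target of p53, had the largest called log2 fold change of the members. It measured 1.18, 1.08, 1.69, 3.70 and 2.49 CPM in WT chow, 54.3, 14.7, 26.3, 10.4 and 44.7 in WT NASH, 3.94, 11.5, 1.49, 2.69 and 2.43 in KO chow, and 31.1, 5.21, 13.7, 20.7 and 33.5 in KO NASH. All WT NASH libraries were far above WT chow, and KO NASH was above WT chow in every library but overlapped KO chow through KO NASH 2 (5.21 CPM) and KO chow 2 (11.5 CPM). The diet difference was 3.91 log2 units (SE 0.63, edgeR adjusted p = 0.00111) in wild type and 2.23 log2 units (SE 0.58, edgeR adjusted p = 0.0404) in the knockout. The first was called with sex as a term and in all 20 fits that left out 1 library, and was not called in males alone, where WT NASH had 1 library. The difference in the knockout depended on more libraries. With 1 library left out at a time it was 1.99 to 2.98, and the call was lost without WT NASH 3, KO chow 1, 3, 4 or 5, or KO NASH 1, 3, 4 or 5. The difference between the diet effects was -1.68 log2 units (SE 0.81, edgeR adjusted p = 0.607).

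Cdkn2c, the gene of p18, which inhibits the kinases that bind D-type cyclins, was called in no comparison. Its group means were 4.00 ± 1.07 CPM in WT chow, 6.03 ± 1.56 CPM in WT NASH, 7.48 ± 5.29 CPM in KO chow and 4.99 ± 3.05 CPM in KO NASH. The KO chow mean rests on KO chow 5, at 16.5 CPM.

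**Figure D5:**
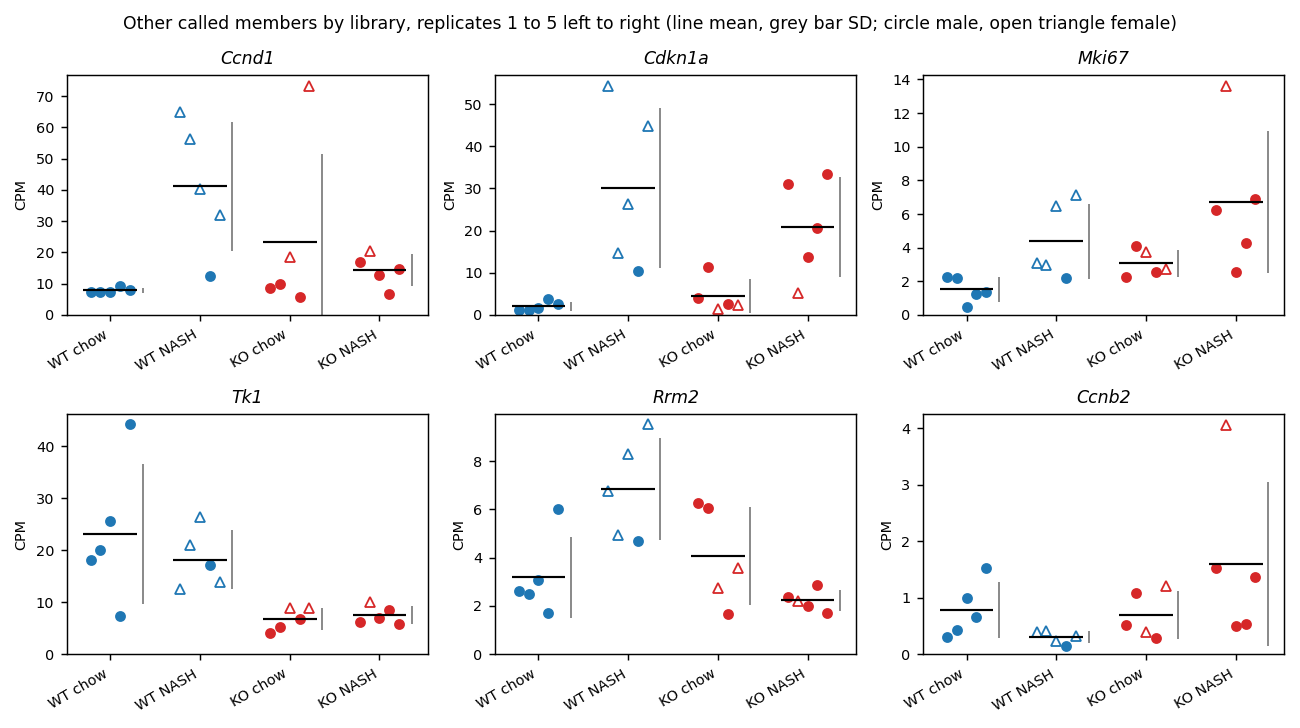
CPM (vertical axes, linear) of Ccnd1, Cdkn1a, Mki67, Tk1, Rrm2 and Ccnb2 in each library by group (horizontal axes, replicates 1 to 5 left to right; blue wild type, red knockout; filled circles males, open triangles females), with the group mean as a line and ± SD as a grey bar that is not drawn below 0. For Ccnd1 every open triangle lies above every filled circle, and for Tk1 the red points stay at or below 10.002 CPM.

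Genes that work beside the members were counted in 5 lists. On chow, 6 of 27 tested other genes of G1/S were higher in KO chow than in WT chow and 0 were lower, where 3.03% of all genes were higher, with a median log2 fold change of 0.77. Among them were Fen1, the flap endonuclease of lagging-strand synthesis (log2 fold change 1.51 with an SE of 0.32, edgeR adjusted p = 0.00878), Pole, a catalytic subunit of the leading-strand polymerase (log2 fold change 2.13 with an SE of 0.55, edgeR adjusted p = 0.0267), and Slbp, which binds histone mRNA (log2 fold change 0.79 with an SE of 0.21, edgeR adjusted p = 0.0319). KO chow 1 and 2 were the highest libraries for Pole, at 9.91 and 6.03 CPM against 0.199 to 2.86 in the rest. Of 34 tested other G2/M genes, 6 were higher and 0 lower, with a median of 0.72, and Cenpa, the centromeric histone variant, had the smallest p (log2 fold change 1.50 with an SE of 0.31, edgeR adjusted p = 0.00769). Of 17 other regulators, Myc and the cyclin D3 gene Ccnd3 were higher (4.22-fold and 2.06-fold). Ccnd3 stood at 101 and 91.1 CPM in KO chow 1 and 2, against 25.5 to 45.4 in the other KO chow libraries. Without KO chow 1 and 2 edgeR called 175 of all 14440 genes. Of the lists it called 0 of the 27, 0 of the 34 and 0 of the 17, with 4, 6 and 1 at an unadjusted p under 0.05. Medians were then 0.48, 0.23 and 0.04. Adding sex as a term gave 6, 6 and 3 calls, where 5.84% of all genes were called.

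In the knockout, edgeR called 0 of the 27 G1/S, 0 of the 34 G2/M and 0 of the 17 regulator genes between diets, against 3.29% of all genes, with 5, 7 and 1 at an unadjusted p under 0.05, and DESeq2 called 1, 2 and 1. Between genotypes on the NASH diet, where 9.65% of all genes were called, edgeR and DESeq2 each called 0 of the 27 other G1/S genes, and 1 passed an unadjusted p of 0.05 in edgeR. Of the 34 other G2/M genes, 5 were called: Spc25 and Cenpf of the kinetochore were higher, Cks1b and Pttg1 (securin) were lower, and Tpx2, named after its values were seen, was higher. Of the regulators, Wee1, whose kinase inhibits Cdk1, was 5.11-fold higher in KO NASH, with Ccnd3 (2.38-fold) and E2f3 (2.33-fold). Among 11 tested mitogens and receptors, the EGF-receptor ligands Areg and Btc were higher and Igf1 was lower in KO NASH. Areg was listed at 0 in 4 of 5 WT NASH libraries and stood at 15.4 and 12.9 CPM in KO NASH 1 and 5, while KO NASH 2, 3 and 4 had 0.171, 0.993 and 0.0958 CPM. Adding sex as a term, with which 4.33% of all genes were called, left 4 of the G2/M genes called, without Pttg1. Of the regulators and mitogens it left Wee1 and Igf1 alone. Without KO NASH 2 the calls were 1 of 34 G2/M genes (Pttg1), 2 regulators (Ccnd3 and Wee1) and the same 3 mitogens. Over all genes 1099 of 14440 were then called.

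Within wild type, where 5.93% of all genes were called between diets, 1 of 27 G1/S genes was: Mcm10, a replication factor, at 18.8 ± 13.6 CPM in WT NASH and 96.0 ± 46.5 in WT chow (SD, n = 5). In G2/M, 1 of 34 genes (Ckap2l) was higher. Of the regulators Ccng2 was higher, and Wee1 and Cdk4 were lower (4.92-fold and 1.64-fold). The receptor gene Fgfr4 was the 1 called among 11 mitogens and receptors (2.45-fold higher). Of 13 genes of the p53 response listed beside Cdkn1a, 2 were higher in WT NASH than in WT chow, Eda2r (4.04-fold) and Phlda3 (4.08-fold). Once sex was a term, edgeR called 1.11% of all genes between the wild-type diets. In the lists it then called 0 of the 27 G1/S genes, 0 of the 34 G2/M genes and 0 of the 11 mitogens and receptors. The calls left were 1 regulator (Ccng2) and 1 p53 gene (Eda2r). In the knockout 3 of the 13 were higher on the NASH diet (1.77% of all genes were), Eda2r (5.75-fold), Trp53inp1 (2.96-fold) and Tnfrsf10b (3.42-fold). The groups did not overlap in 4 of the 13, these 3 among them, against 8.5% of all genes. None of the 13 was called between genotypes on either diet by edgeR; 6 had an unadjusted p under 0.05 on the NASH diet and 0 on chow, and DESeq2 called 3 and 0.

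Summed markers of other cells that could divide were set beside these genes. T cell markers (6 of 8 tested) summed to 4.80 to 10.6 CPM (WT chow), 6.59 to 17.7 CPM (WT NASH), 3.30 to 7.08 CPM (KO chow) and 3.48 to 8.16 CPM (KO NASH libraries), with Cd3e called higher in WT NASH and Cd3g lower in KO NASH against WT NASH. Macrophage markers (7 of 7) ran from 212 to 822 CPM, 343 to 846, 289 to 1426 and 282 to 377 in the same order. Cd68 alone of them was called higher in WT NASH and in KO chow against WT chow. Between the wild-type diets 4 of the 7 had a positive and 3 a negative log2 fold change, with a median of 0.02. All 7 were positive in KO chow against WT chow, with a median of 0.47. Endothelial markers (5 of 5) ran from 139 to 219 CPM, 111 to 180, 164 to 235 and 154 to 264, with Kdr and Lyve1 higher in KO NASH than in WT NASH. B cell markers (5 of 6 tested) ran from 2.49 to 10.2 CPM, 2.91 to 7.42, 3.66 to 10.9 and 1.49 to 4.53, with Ighm at 0 in all libraries. Bile duct markers (6 of 6) ran from 44.0 to 535 CPM and stellate cell markers (6 of 6) from 84.1 to 245 over all libraries, with Sox9 called higher in KO NASH than in KO chow. Of the red cell precursor markers (5 of 6 tested) Hbb-bt was lower on the NASH diet in both genotypes and Tfrc higher in KO NASH than in WT NASH. Between the NASH groups 3 of the 5 were positive and 2 negative, with a median log2 fold change of 0.03. Between diets all 5 were negative in wild type, and 4 were negative and 1 positive in the knockout. The hepatocyte marker sum (5 of 6 tested, with Serpina1c called lower in the knockout on both diets) stood at 41513 to 115060 CPM in all groups. Between genotypes 2 of the 5 were positive and 3 negative on chow, and all 5 were negative on the NASH diet. The part of these cells in the levels of the members was not tested.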

How the data were processed

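RNA of 20 whole mouse livers, 5 per group, was sequenced. The deposited values are whole-number counts per gene symbol. Reads were aligned with HISAT2 2.0.4 to GRCm38, per the submitters' processing notes. Which counting program and annotation they used, and whether strand was used, is not given in the sources used here. Columns named HFD were matched to the NASH groups. In R 4.3.3, edgeR 4.0.16 (TMM, filterByExpr with a minimum count of 10, quasi-likelihood tests) was fitted to all libraries with 1 coefficient per group, with Benjamini-Hochberg adjustment over the 14440 genes tested, which hold 99.91% of the counts. Log2 levels used log2(CPM + 0.5). limma 3.58.1 (voom) and DESeq2 1.42.0 were alternatives, with other scaling, no filter, sex or length slope as terms, subsets of libraries and each library left out. The settings without KO chow 1 and 2 and without the 6 libraries of negative slope were chosen after seeing the data. Libraries in which 4 Y-linked genes summed to 100 counts or more were taken as male. The length slope was fitted over 9745 genes, with GENCODE M21 exon lengths found for 13505 (93.5%) of those tested. Exon positions and overlaps come from the same annotation. Scripts were tested on simulated data.

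The members and lists were chosen with earlier results of these data known. Values of every library are given for called members (the 15 of smallest adjusted p where more are called) and for the member of highest mean CPM in each role, and at most 4 called genes of smallest p per pathway list and comparison are named. Libraries of the same replicate number did not deviate together in every comparison, and their correlations over genes ran from -0.403 to 0.576. Between KO chow and WT chow they were 0.576, 0.507, -0.385, 0.189 and 0.449 for replicates 1 to 5. The numbers were not used as pairs, and counts from a fit with a replicate block are given below. The closest pair of libraries, KO NASH 1 and 5, differed by more than sampling noise (chi-square per degree of freedom 8.18) and was kept as 2 samples.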

Additional observations from a re-analysis of the deposited data

Results flagged for a closer look

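In a group of 5 libraries, a value was singled out when its gap to the nearest library exceeded 0.71 of the range of the group. Of 152 groups (38 members in 4 groups), 11 met this. About 1 in 20 is the rate for independent, normally distributed values, which these CPM values need not be. WT NASH 4, the single male of its group, had 4 of them. Its Pcna stood at 51.6 CPM (next library 27.0), its Tyms at 17.2 CPM (next 6.24), its Cdk1 at 4.56 CPM (next 1.36), and its Mcm6 was low at 1.32 CPM (next 3.50). KO chow 5, a female, also had 4. Its Ccnd1 was 73.3 CPM (next 18.7), its Tyms 20.5 CPM (next 8.78), its Nusap1 1.52 CPM (next 0.436) and its Prc1 1.28 CPM (next 0.603). Both libraries are among the 6 whose levels fell with exonic length, WT NASH 4 as the single one of its group, and all 6 had more Pcna and Tyms than the other 14. The part of sex and of that slope in these values was not tested. The others were Ccnd1 in WT chow 4 at 9.31 CPM (next 7.90), Foxm1 in KO NASH 2 at 2.01 CPM (next 0.771) and Cdkn1a in KO chow 2 at 11.5 CPM (next 3.94).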

How the results depend on the processing

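Of 635 values of called members under other settings, 508 kept direction and call, 127 kept direction only and 0 reversed. Counts of members called moved as follows. In WT NASH against WT chow (4) there were 1 with sex as a term, 1 with sex and length slope, 2 with only the groups compared, 0 in males and 11 by limma voom. In KO chow against WT chow (7) there were 12 in males, 1 without KO chow 1 and 2, 12 by DESeq2 and 16 by voom. In KO NASH against WT NASH (4) there were 8 with only the groups compared, 1 in males, 0 in females, 2 with KO NASH 1 and 5 as 1 sample, 7 without KO chow 1 and 2, 8 without the 6 libraries of negative slope, 8 by DESeq2 and 8 by voom. In KO NASH against KO chow (4) there were 2 without a filter, 8 with the slope as a term, 12 with sex and slope, 2 with only the groups compared, 0 in males, 0 in females, 0 with KO NASH 1 and 5 as 1 sample, 1 without KO chow 1 and 2, 10 without the 6 libraries, 8 by DESeq2 and 12 by voom. The interaction (0) had 1 without KO chow 1 and 2, 1 without the 6 libraries, 2 by DESeq2 and 4 by voom. Leaving out 1 library gave 3 to 7, 6 to 10, 2 to 6, 0 to 6 and 0 to 1 in the same order. With the replicate block the counts were 4, 7, 5, 2 and 0. The labels do not say that the numbers pair the mice. Calls over all 14440 genes moved as well. With group alone edgeR called 857, 798, 1393, 475 and 20 genes in the same order of comparisons. DESeq2 called 1496, 1389, 2196, 1303 and 189. With sex as a term edgeR called 161, 844, 625, 574 and 4, and without KO chow 1 and 2 it called 919, 175, 1468, 393 and 69. The cause of these moves was not tested. Subsets of males or females hold as few as 1 library a group, which is assumed to vary like the others. Members with a mean under 1 CPM rest on few counts.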
